A study of Papio hamadryas with 17 samples.

Results

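Transcript levels of 8 genes for phosphate transport and its hormonal control were described in kidney cortex of female and male baboons. The genes were the sodium-phosphate cotransporters SLC34A1, SLC34A3, SLC20A1 and SLC20A2, the scaffold gene SLC9A3R1, the parathyroid hormone receptor gene PTH1R, and KL and FGFR1, which encode klotho and a fibroblast growth factor receptor. They were chosen by name, not by their values, out of 13850 genes in the deposited table of females. Of the 8 genes, 6 were present among the 9818 genes held for both sexes. SLC20A1 and SLC20A2 were held for the females only and are described there. The 8 genes had 26 transcripts in the females' table, of which 18 were held for both sexes.

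The kidney filters phosphate freely, and the proximal tubule takes most of it back through sodium-coupled transporters in the brush border. Parathyroid hormone, acting on its receptor PTH1R, and the bone hormone FGF23, acting on FGF receptors with klotho as coreceptor, remove these transporters from the membrane and so increase phosphate loss in urine. The scaffold NHERF1, the product of SLC9A3R1, holds the main transporter at the brush border and links it to hormone signalling.

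The tissue was taken by ultrasound-guided biopsy of the kidney cortex from 17 baboons, 8 females and 9 males, labelled Papio hamadryas. All animals had eaten a low-salt chow throughout life and had no treatment. Each animal gave 1 library of stranded mRNA. The females were aged 15 to 19 and the males 6 to 13, in a unit that the labels do not give, so the age ranges did not overlap. Female library names formed a series of their own, and male names formed 2, called series A (5 libraries) and series B (4 libraries). Sex, age and name series therefore cannot be told apart, and a difference between the sexes below is a difference between these groups of animals. The study's question was how kidney transcripts and their co-expression differ between female and male baboons.

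In 3 libraries, female 1, female 2 and male 6, skeletal muscle genes made up a large part of the signal. Together, 7 such genes had a signal of 109540, 155595 and 84479 there, against 36.3 to 106.1 in the other 14. The mean log2(signal + 1) of 24 proximal tubule marker genes was 0.992 and 0.999 in female 1 and female 2, 2.81 in male 6, and 2.61 to 8.01 in the other 14. The lowest of these, 2.61, was female 3, below male 6. Of the 24 markers 0 were at 0 throughout the 14. The values below are from the 14 other libraries, 6 females and 8 males, unless 17 are named. The signal of these 14 corresponds to an estimated 890000 to 6836000 reads on transcripts held for both sexes, and female 6 was the shallowest.

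Signal is the deposited transcript value less its offset of 1, summed over the transcripts of a gene. The unit of the deposited values was not given in the sources used here. Signal was treated as not divided by transcript length, so levels are compared between libraries and not between genes. Sex differences were tested with limma on log2(signal + 1) over 9532 genes, with p-values adjusted by the Benjamini-Hochberg method over all of them. A gene was called when the adjusted p was under 0.05.

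Of the 6 phosphate genes held for both sexes, 5 were lower in females and 1, FGFR1, was higher. Over all genes tested, 36.1% were called lower in females and 2.22% higher, or 38.3% in either direction, and the median log2 difference, female minus male, was -0.35. Log2 differences for SLC34A1, SLC34A3, SLC9A3R1, PTH1R and KL ran from -3.16 to -0.98, all below that median. SLC34A3 and SLC9A3R1 showed no overlap between the sexes, a pattern that 11.8% of all genes showed in the same direction. Because a biopsy mixes many cell types, fewer cells of a type and less RNA per cell cannot be told apart in any of these differences.

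**Figure D1:**
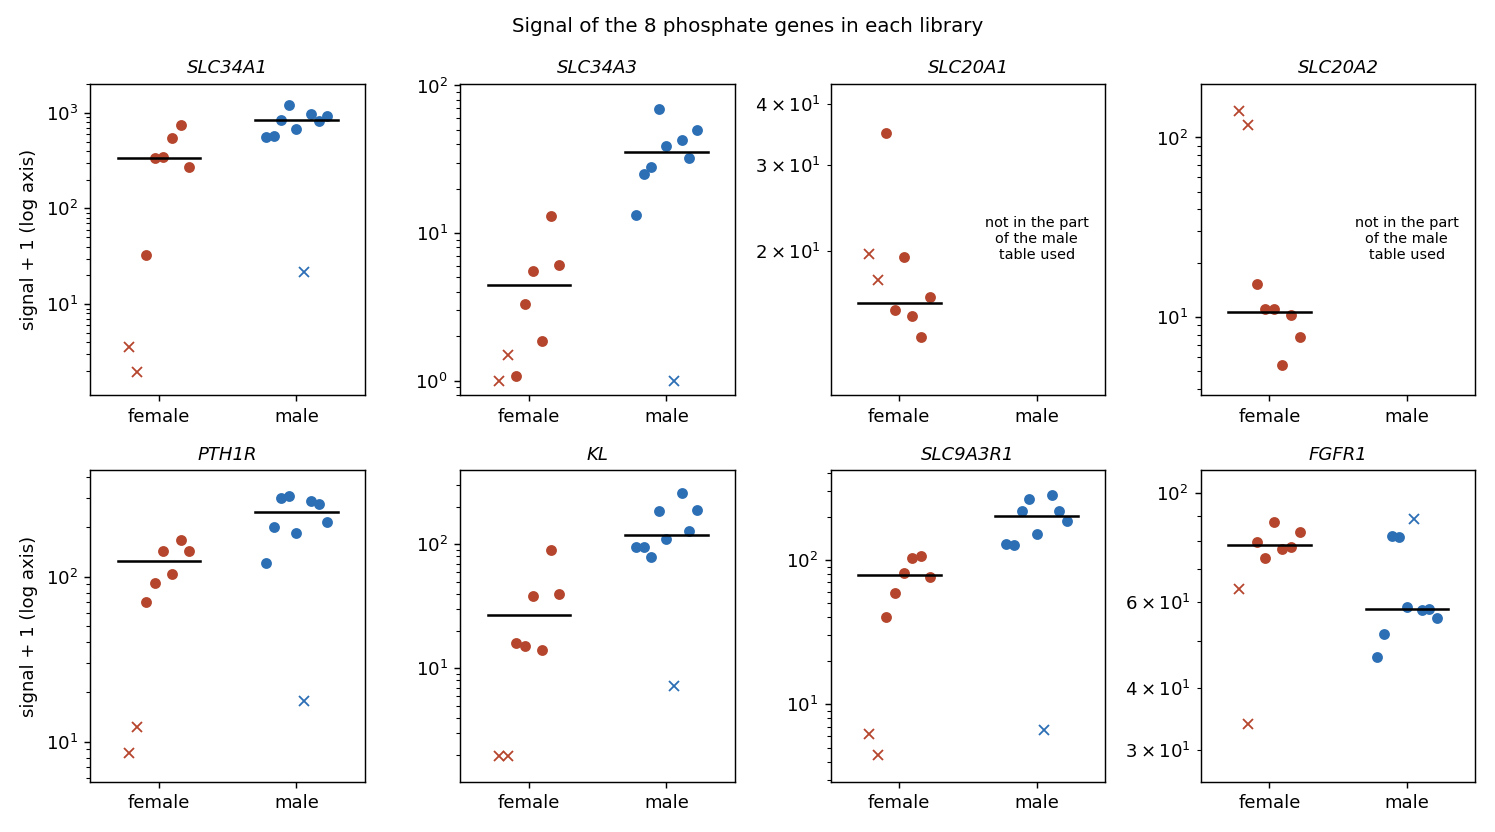
Signal + 1 of each phosphate gene (log axis) in every library, by sex; filled points are the 14 libraries compared, crosses the 3 muscle-rich libraries, and bars the medians of the filled points. All 6 female points lie below all 8 male points for SLC34A3 and SLC9A3R1, and all 6 lie above the male median for FGFR1.

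SLC34A1 (gene12476, sequence NC_018157.2, 171701655 to 171716130, plus strand) encodes NaPi-IIa, the principal phosphate transporter of the proximal tubule brush border. Its signal in females was lowest at 31.5 in female 3, had a median of 337.2 and reached 744.8 in female 7. In males it ran from 555.8 in male 1 through a median of 827.9 to 1214 in male 4. Of the females, 5 of 6 lay under the lowest male, and female 7 overlapped with the male range. The male mean of 820.6 ± 220.9 (SD, n = 8) was 2.17 times the female mean of 377.7 ± 244.5 (SD, n = 6). The log2 difference was -1.55 (95% interval -2.62 to -0.47, limma adjusted p = 0.0245). Scaling each library to its median put the median of all genes at 0.03 and the SLC34A1 difference at -1.09, and the call was then lost (limma adjusted p = 0.138).

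SLC34A3, on the minus strand of NC_018166.2 from 980334 to 986388 (gene25279), encodes NaPi-IIc, a second brush-border phosphate transporter, whose loss causes hereditary phosphate wasting with rickets in humans. Over the 3 transcripts held for both sexes its signal in females was 0.0725 in female 3, 3.43 at the median and 12.0 in female 7. In males it was 12.3 in male 1, 34.5 at the median and 68.4 in male 4. Every female lay below every male, although the highest female and the lowest male differed by little. The male mean of 36.4 ± 17.2 (SD, n = 8) was 8.80 times the female mean of 4.13 ± 4.31 (SD, n = 6). The log2 difference was -3.16 (95% interval -4.16 to -2.17, limma adjusted p = 0.000180), the largest among the 6 genes.

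Few reads stood behind SLC34A3 in some females. An estimated 1.3 reads in female 3 and 2.7 in female 6 lay at or under a floor of 3 reads, against 223.7 to 888.7 in males. Another SLC34A3 transcript, XM_021927012.1, was held for females only and carried 12.9% to 88.3% of the female signal when all 4 transcripts were summed. With it, the female signal ran from 0.618 through a median of 5.06 to 15.1, which overlaps the males' values over 3 transcripts. Setting females over 4 transcripts against males over 3 gave a log2 difference of -2.75 (limma adjusted p = 0.000405). That comparison can only understate the male excess, because no transcript was added in males.

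The balance of the 2 type II transporters was examined as the ratio of SLC34A1 to SLC34A3 signal in each library. The signals were treated as not per length, so the ratio is read between libraries only. In females 3 to 8 the ratio was 435, 144.3, 75.04, 636, 62.3 and 53.0. In males it ran from 17.7 in male 4 through a median of 23.4 to 45.4 in male 1. All 6 females had a higher ratio than all 8 males, and the highest female ratios, 435 and 636, were those with SLC34A3 at or under the floor. Females had a mean log2 ratio of 7.20 ± 1.52 (SD, n = 6) and males of 4.61 ± 0.46 (SD, n = 8). The difference of 2.59 had a two-sided exact permutation p of 0.000333, the smallest that the 3003 groupings of 6 and 8 libraries can give. Ratios of other gene pairs were not examined, so this separation and its p-value have no background beside them.

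The size of this difference depended on the weakest SLC34A3 values. Without female 3 and female 6 it was 1.67 (two-sided exact permutation p = 0.00202), and with XM_021927012.1 added in females it was also 1.67 (two-sided exact permutation p = 0.000999). In that last comparison the ratio of female 3 fell to 51.0, and females ran from 35.9 to 430.2, so the lowest females overlapped with male 1. With 1 added to both signals the difference was 1.62 (two-sided exact permutation p = 0.000666). Female 3, at a log2 ratio of 4.92, then lay within the male range of 4.12 to 5.39. Against series A males alone the difference was 2.53 and against series B males alone 2.69 (two-sided exact permutation p = 0.00649 and 0.0357). With all libraries that have a ratio, 7 females and 8 males, it was 1.70 (two-sided exact permutation p = 0.110), since female 2 had a ratio of 1.97. Female 1 and male 6 were listed at 0 for SLC34A3 and have no ratio.

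**Figure D2:**
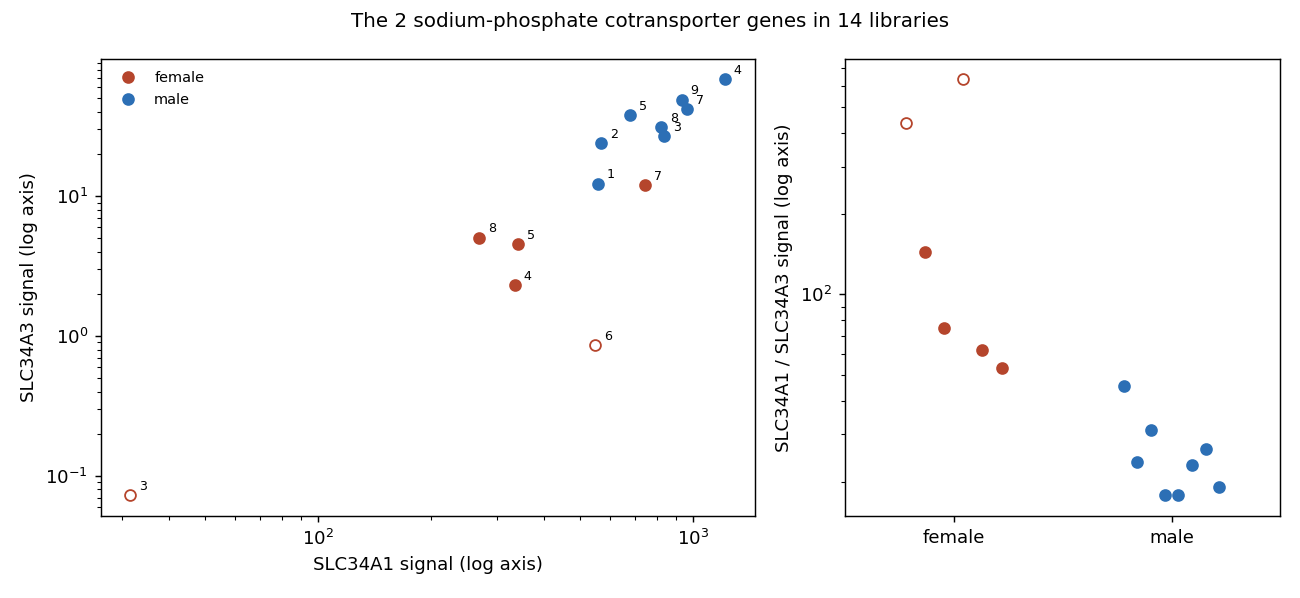
Left, SLC34A3 signal against SLC34A1 signal in each of the 14 libraries (log axes, number of the library beside each point); right, the ratio of the signals by sex (log axis), with open points where SLC34A3 was at or under 3 estimated reads. At like SLC34A1 signal, as in female 7 and male 5, the females had less SLC34A3, and male ratios lie between 17.7 and 45.4.

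SLC20A1 and SLC20A2 encode the widely expressed type III transporters PiT-1 and PiT-2 and were measured here in females only. SLC20A1 (gene23263, NC_018164.2, 103835250 to 103852766, plus strand) had a signal of 12.3 in female 7, 14.6 at the median and 33.9 in female 3. SLC20A2 (gene15205, NC_018159.2, 40880622 to 41006449, minus strand) had 4.43 in female 6, 9.69 at the median and 14.2 in female 3. Female 3, which was lowest for SLC34A1, SLC34A3, PTH1R and SLC9A3R1, was thus highest for both type III genes. In the muscle-rich female 1 and female 2, SLC20A2 stood at 140.2 and 116.7, above every other female, and SLC20A1 at 18.7 and 16.4. In the same libraries SLC34A1 was 2.60 and 0.947 and KL 0.947 and 0.947, below every other female.

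SLC9A3R1 (gene27958, NC_018167.2, 66417684 to 66437485, plus strand) encodes the PDZ scaffold NHERF1. Its signal was 39.5 in female 3, 77.6 at the female median and 106.1 in female 7, against 125.8 in male 2, 200.6 at the male median and 281.8 in male 7. The female and male ranges did not overlap. Means were 76.8 ± 25.6 (SD, n = 6) and 196.0 ± 59.1 (SD, n = 8), a 2.55-fold higher male mean. The log2 difference was -1.36 (95% interval -1.87 to -0.85, limma adjusted p = 0.000516) and was -0.90 after median scaling (limma adjusted p = 0.0156).

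PTH1R (gene4195, NC_018153.2, 88877774 to 88904434, minus strand) encodes the receptor through which parathyroid hormone lowers phosphate uptake. Its signal was 69.2 in female 3, 122.6 at the female median and 165.0 in female 7. In males it was 119.8 in male 1, 243.7 at the median and 305.7 in male 4. Only 3 of 6 females lay under the lowest male, which was male 1, and 7 of 8 males lay above the highest female. Means were 118.6 ± 36.7 (SD, n = 6) and 235.4 ± 66.8 (SD, n = 8), with a log2 difference of -0.98 (95% interval -1.48 to -0.49, limma adjusted p = 0.00405). After median scaling the difference was -0.53 and was not called (limma adjusted p = 0.131).

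KL (gene28349, NC_018168.2, 11987810 to 12041604, plus strand) encodes klotho, the coreceptor that lets FGF receptors respond to FGF23 in the kidney. Its signal was 13.0 in female 6, 26.0 at the female median and 88.8 in female 7. In males it was 78.8 in male 3, 118.3 at the median and 256.8 in male 7. Female 7 lay within the male range and the other 5 females below it. The male mean of 141.6 ± 62.0 (SD, n = 8) was 4.11 times the female mean of 34.4 ± 29.1 (SD, n = 6). The log2 difference was -2.25 (95% interval -3.08 to -1.42, limma adjusted p = 0.000459), and -1.80 after median scaling (limma adjusted p = 0.00406).

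FGFR1 (gene15160, NC_018159.2, 36745803 to 36805972, minus strand) encodes a receptor tyrosine kinase that, with klotho, forms a receptor for FGF23, and many cell types express it. Its signal was even among females, from 72.7 through a median of 77.6 to 86.3. In males it ran from 45.4 through a median of 57.0 to 80.9, and males 3 and 4 reached the female range. All 6 females lay above the male median. The female mean of 78.7 ± 4.86 (SD, n = 6) was 1.30 times the male mean of 60.5 ± 13.2 (SD, n = 8). The log2 difference was 0.40 (95% interval 0.11 to 0.69, limma adjusted p = 0.0301), and it was not called without female 5, female 8, male 1 or male 9 (limma adjusted p up to 0.0648). After median scaling it was 0.85 (limma adjusted p = 0.00146).

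Scaling and the choice of libraries thus bore unequally on the 6 genes. After median scaling, 14.9% of all genes were called lower in females and 14.4% higher, and 4 of the 6 phosphate genes were called, SLC34A3, KL and SLC9A3R1 lower and FGFR1 higher. With all 17 libraries, 12.9% of genes were called lower and 0.394% higher, and only SLC34A3 at -3.01 (limma adjusted p = 0.0141) and KL at -2.74 (limma adjusted p = 0.0291) were called. SLC34A3 at -2.66 (limma adjusted p = 0.0444) was the 1 member called with 17 libraries and median scaling together, a setting that called 2.56% of genes lower. With age as a term beside sex, 1 gene in all and 0 of the 6 were called by limma (518 genes had an unadjusted p under 0.05), with log2 differences of -2.09 for SLC34A3 (95% interval -5.05 to 0.88), -0.87 for KL (95% interval -3.27 to 1.52) and 0.03 for PTH1R (95% interval -1.37 to 1.44).

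**Figure D3:**
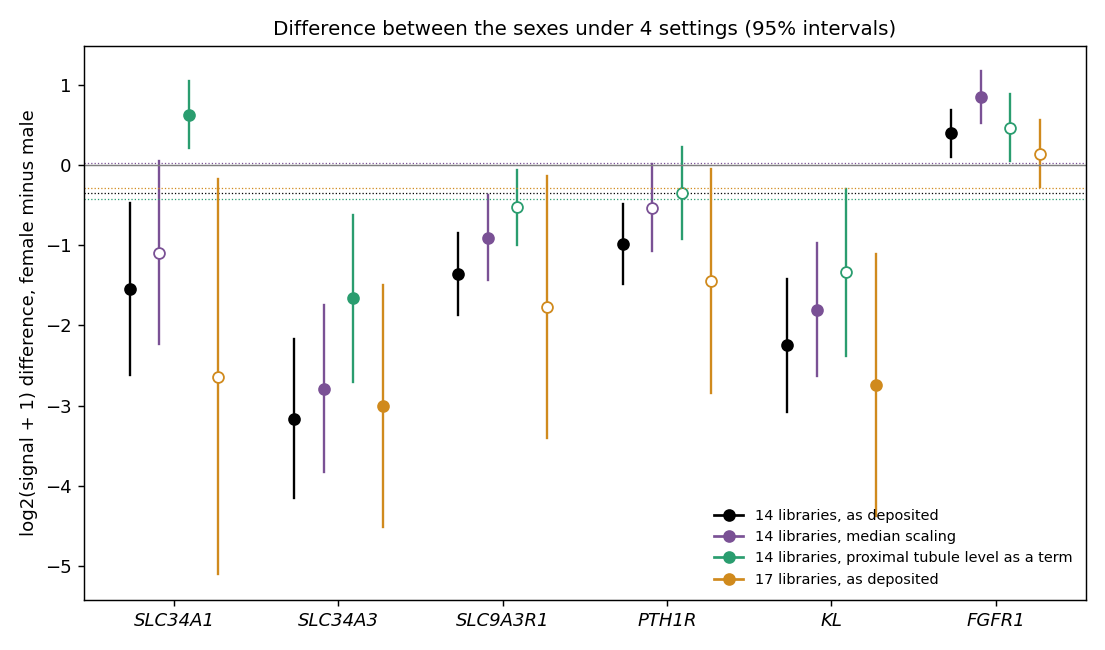
Log2 difference, female minus male, of the 6 genes held for both sexes with 95% intervals under 4 settings; filled points have a limma adjusted p under 0.05, and dotted lines are the median of all genes in each setting. SLC34A3 is called under all 4 settings drawn, and SLC34A1 changes sign, from -1.55 to 0.63, when the proximal tubule level is a term.

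The proximal tubule markers moved with these results. Summed signal of the 24 markers was 379 to 5325 in females (median 2517) and 4970 to 11131 in males (median 8276). Of these 24 genes, 22 were called lower in females, with a median log2 difference of -2.20, and 0 were called higher. After median scaling 15 of the 24 were called lower, with a median of -1.76, and 0 higher. Of the markers of other cells, 2 of 7 were called lower for the thick limb and 2 of 5 for the distal convoluted tubule. Podocytes had 1 of 4 called lower, and principal and intercalated cells 0 of 7 and 0 of 8. Over all genes 36.1% were called lower. After median scaling the lower calls were 1 of 7 for the thick limb, 0 of 5 for the distal convoluted tubule and 0 of 4 for podocytes. In that setting 1 of 7 principal cell markers was called higher. Endothelial markers had a median log2 difference of 0.18, with 1 of 8 called higher and 3 of 8 after median scaling. The 6 stromal markers had a median of 0.16 with 0 called, and 1 was called higher after median scaling.

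With the mean log2(signal + 1) of the 24 markers as a term beside sex, 2 of the 6 phosphate genes were called, in opposite directions. SLC34A1 turned to 0.63, higher in females (95% interval 0.21 to 1.05, limma adjusted p = 0.0337). SLC34A3 stayed lower in females at -1.66 (95% interval -2.70 to -0.62, limma adjusted p = 0.0263). KL at -1.34, SLC9A3R1 at -0.53, PTH1R at -0.34 and FGFR1 at 0.47 were not called (limma adjusted p = 0.0611, 0.0949, 0.362 and 0.0950). This setting called 20.6% of all genes lower and 1.33% higher. It leaned on female 3, whose marker level of 2.61 lay far under the 5.42 to 6.81 of the other females. Without female 3, 1 gene in all and 0 of the 6 were called by limma (1527 genes had an unadjusted p under 0.05), with 0.37 for SLC34A1 (95% interval -0.13 to 0.87) and -1.39 for SLC34A3 (95% interval -2.79 to 0.01).

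**Figure D4:**
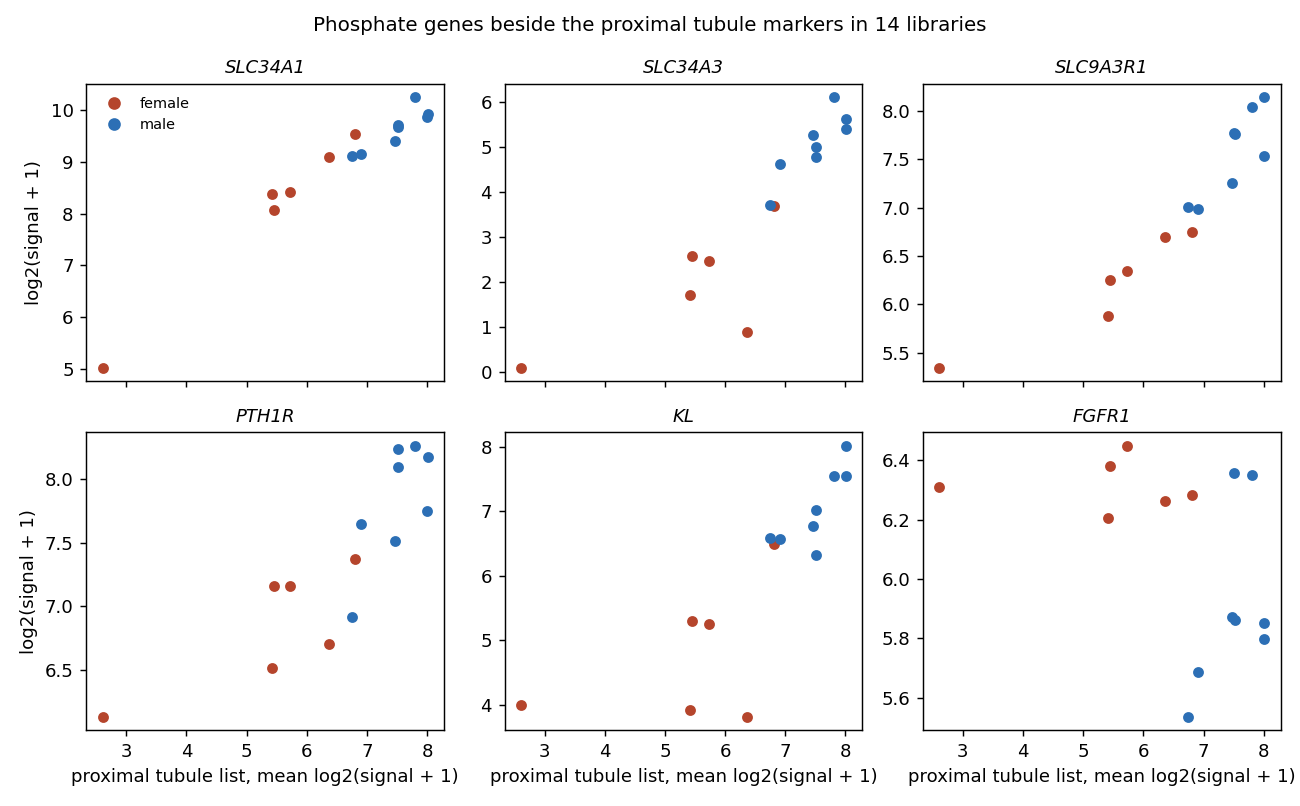
Log2(signal + 1) of each gene held for both sexes against the mean log2(signal + 1) of 24 proximal tubule markers, 1 point per library and coloured by sex. SLC34A1 follows the marker level most closely (r = 0.975), KL is low in females 4 and 6 at marker levels of 5.42 and 6.37, and female 3 stands apart at 2.61.

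Correlations with the marker level were computed for the 6 genes over the 14 libraries, by 100000 permutations or exactly where n was under 10. SLC34A1 had a Pearson r of 0.975 and a Spearman rho of 0.965 (permutation adjusted p = 2.00e-05 and 4.00e-05), with r = 0.944 without female 3 and female 8. Within the sexes, r was 0.996 in 6 females and 0.884 in 8 males (exact permutation adjusted p = 0.0125 and 0.0129). SLC9A3R1 had r = 0.927 over all 14, 0.946 in females and 0.826 in males (permutation adjusted p = 2.00e-05, exact 0.00833 and 0.0205). KL reached 0.814 over all 14 and 0.787 in males (permutation adjusted p = 0.000108, exact 0.0335), against 0.488 in females (exact permutation adjusted p = 0.385). Females 3, 4 and 6, lowest for KL, had mean log2(signal + 1) of 2.19, 2.72 and 3.03 over 5 distal convoluted tubule markers. Females 5, 7 and 8 had 3.76, 4.49 and 3.73 there, and males 3.34 to 4.45. How far KL follows these distal markers was not tested. For SLC34A3 r was 0.887, 0.717 and 0.862 over all, in females and in males, and for PTH1R 0.851, 0.779 and 0.710. Over all 14, rho of the 5 genes other than FGFR1 was 0.890 to 0.965, and r without the 2 libraries farthest from the median was 0.765 to 0.966. FGFR1 had -0.43 over all 14 (permutation adjusted p = 0.119), and -0.06 in females and 0.49 in males, so its sign differed between the pooled and the male values. After median scaling its rho of -0.569 passed (permutation adjusted p = 0.0365) and its r of -0.43 did not (permutation adjusted p = 0.115). Pooled values include the sex difference itself. After each sex was centred on its own mean, r of KL was 0.534 and did not pass (permutation adjusted p = 0.159). In that setting r of SLC34A1, SLC34A3, PTH1R and SLC9A3R1 still passed.

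Among the 15 pairs of the 6 genes, the 10 pairs without FGFR1 all correlated positively over the 14 libraries, with r from 0.713 to 0.952, and all 10 passed at an adjusted p under 0.05 by permutation. Spearman rho of these pairs ran from 0.767 to 0.947, and r without the 2 libraries farthest from the median from 0.763 to 0.932. After median scaling the r of all 10 still passed, and rho of SLC34A1 with SLC34A3 was 0.547 and did not (permutation adjusted p = 0.0570). After each sex was centred on its own mean, all 10 stayed positive. The r of SLC34A1 with KL was then 0.467 and of KL with SLC9A3R1 0.572, neither passing (permutation adjusted p = 0.252 and 0.0741). In addition to these pairs, rho of SLC34A3 with SLC34A1 and with SLC9A3R1 did not pass (permutation adjusted p = 0.0874 and 0.115). The closest pair was SLC34A3 with KL, with r = 0.952 and rho = 0.934 (permutation adjusted p = 3.75e-05 and 0.000100), and r = 0.928 without female 3 and female 6. Within the sexes that pair had r = 0.905 in 6 females and 0.701 in 8 males, neither passing (exact permutation adjusted p = 0.118 and 0.0860). In males 3 pairs passed, SLC34A1 with SLC34A3 at 0.859, SLC34A1 with SLC9A3R1 at 0.912 and PTH1R with SLC9A3R1 at 0.868 (exact permutation adjusted p = 0.0320, 0.0238 and 0.0238). In females 0 of 15 pairs passed, and r ran from -0.11 for SLC34A1 with FGFR1 to 0.930 for SLC34A3 with PTH1R (exact permutation adjusted p = 0.884 and 0.0729). The pairs whose r passed among males all held SLC34A1 or its scaffold gene SLC9A3R1, as most of the 15 pairs do. Among males rho of those pairs passed too, and so did rho of SLC34A1 with PTH1R, at 0.857 (exact permutation adjusted p = 0.0402).

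FGFR1 was the exception in sign. Its 5 pairs were negative over the 14 libraries, from -0.512 with KL to -0.195 with PTH1R, and none passed (permutation adjusted p from 0.0843 to 0.502). After median scaling 2 of them passed, with r = -0.613 for KL and -0.589 for SLC34A3 (permutation adjusted p = 0.0296 and 0.0343). After each sex was centred on its own mean all 5 turned positive, from 0.115 with KL to 0.642 with PTH1R (permutation adjusted p of the latter = 0.0266). The rho of FGFR1 with PTH1R was then 0.591 and did not pass (permutation adjusted p = 0.0515).

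The genes whose levels over the 14 libraries were most like each phosphate gene were sought among 9531 others. For SLC34A1 they were UPB1, a pyrimidine breakdown gene, and the organic anion transporter genes SLC22A6 and SLC22A11 (r = 0.994, 0.992 and 0.991), against a median r of 0.19 over all genes. For SLC34A3 they were GSR, the glutathione reductase gene, SLC6A19, a neutral amino acid transporter gene, and SLC5A2, which encodes the glucose transporter SGLT2 (r = 0.985, 0.971 and 0.970; median 0.39). For KL they were GSR, MAP7 and SFXN5 (r = 0.967, 0.961 and 0.957; median 0.42). GSR thus led for both SLC34A3 and KL, and its r in males was 0.962 with SLC34A3 and 0.700 with KL.

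SLC9A3R1 was most like SCRN2, HECW1 and SLC22A4 (r = 0.970, 0.968 and 0.967; median 0.37). PTH1R was most like SLC25A10, a mitochondrial dicarboxylate carrier gene, SLC30A2, a zinc transporter gene, and SLC5A2 (r = 0.952, 0.951 and 0.936; median 0.31). FGFR1 was most like HSPB1, a small heat shock protein gene, TMEM44 and KCNH2 (r = 0.901, 0.880 and 0.864), against a median of -0.29. Within females these 3 had r = 0.363, 0.736 and 0.274, and within males 0.878, 0.827 and 0.934. SLC22A6, SLC6A19 and SLC5A2 belong to the proximal tubule marker list, and all these values share the libraries and their depth.

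Annotated transcripts of the same gene did not all follow the gene sum. Shares of a gene's signal were compared for 16 transcripts of SLC34A1, SLC34A3, PTH1R and FGFR1 by two-sided exact permutation tests, a comparison chosen after the values were seen. Reads that fit several near-identical transcripts are divided by estimation, so the shares carry that uncertainty as well as the spread between animals. Of the 16 shares, 9 had an adjusted p under 0.05, and 3 did with all 17 libraries. SLC34A1 has only 2 transcripts, so their shares mirror each other, and each count holds the same result for both. The shares of PTH1R and FGFR1 are also tied within each gene. Shares were not tested over all other genes, so these counts, and any lack of overlap in a share, have no background beside them.

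The SLC34A1 transcript with the shorter genomic span, XM_009209642.2 (171701659 to 171715580), made up 2.16% to 5.93% of the gene's signal in females (median 3.80%). In males it made up 4.76% to 15.3% (median 10.8%), and 1 male, male 2, lay within the female range. Mean shares were 3.77% ± 1.51 (SD, n = 6) and 10.99% ± 3.46 (SD, n = 8), with an exact permutation adjusted p of 0.00666 in the 14 libraries and 0.00230 in the 17. XM_003900589.4 held the rest. By level, XM_009209642.2 was lower in females with a log2 difference of -2.91 (limma adjusted p = 0.000980), and -2.50 after median scaling (limma adjusted p = 0.00508). XM_003900589.4 was at -1.43, just past the threshold (limma adjusted p = 0.0433). Its call was lost after median scaling, where it was -0.99 (limma adjusted p = 0.203), with all 17 libraries, without a filter, with a pseudocount of 0.1 and in 9 of the 14 fits that leave out 1 library (limma adjusted p up to 0.0726 in these 14). Among 15968 transcripts tested, 25.0% were called lower in females and 1.93% higher.

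PTH1R had 1 main transcript, XM_003894509.4, whose share was 54.2% ± 9.12 (SD, n = 6) for females and 61.9% ± 4.84 (SD, n = 8) for males (exact permutation adjusted p = 0.1002). XM_009200932.3 held 5.26% ± 2.62 (SD, n = 6) for females and 12.5% ± 2.98 (SD, n = 8) for males (exact permutation adjusted p = 0.00666). XM_017955485.2 ran the other way, with 20.2% ± 8.78 (SD, n = 6) and 9.95% ± 6.02 (SD, n = 8) (exact permutation adjusted p = 0.0433). Its level did not follow the fall of the gene, with a log2 difference of 0.08 (95% interval -0.74 to 0.90, limma adjusted p = 0.901). With all 17 libraries its share was not called (exact permutation adjusted p = 0.219). XM_009200933.3 had a share of 15.1% in females and 10.5% in males (exact permutation adjusted p = 0.0468), which did not pass without female 3 and female 6 (exact permutation adjusted p = 0.317). By level, XM_009200934.3 was at -0.78 (limma adjusted p = 0.0274), and at -0.40 and not called after median scaling (limma adjusted p = 0.308).

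FGFR1, the gene with the smallest sex difference as a sum, had transcripts with differences of either sign. XM_009212923.3 made up 4.11% to 12.9% of its signal in females and 13.8% to 22.5% in males, with no overlap. Means were 8.01% ± 3.51 (SD, n = 6) and 18.5% ± 3.25 (SD, n = 8) (exact permutation adjusted p = 0.00533). XM_009212920.3 held 22.4% in females and 10.6% in males and XM_009212929.3 42.7% and 33.0%, while XM_003902661.3 held 23.2% and 32.7% (exact permutation adjusted p = 0.0167 for each). Without female 3 and female 6 the shares of XM_009212929.3 and XM_003902661.3 did not pass (exact permutation adjusted p = 0.0566 for each). By level, XM_009212920.3 and XM_009212929.3 were higher in females by 1.41 and 0.74 on the log2 scale (limma adjusted p = 0.00405 and 0.00769), and XM_009212923.3 was at -0.79 (limma adjusted p = 0.0195). After median scaling the first 2 stayed higher, at 1.79 and 1.17 (limma adjusted p = 0.00418 and 0.00180), and XM_009212923.3 was not called, at -0.41 (limma adjusted p = 0.174). With all 17 libraries none of the 3 was called by limma (adjusted p = 0.134, 0.302 and 0.107). With all 17 libraries none of the FGFR1 shares passed (exact permutation adjusted p from 0.0706 to 0.219).

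For SLC34A3 none of the 3 shares differed at an adjusted p under 0.05, and all 3 transcripts were lower in females by limma. XM_021927011.1 was its main transcript in males, with 71.1% ± 8.84 (SD, n = 8) of the signal. In females it held 6.35% to 99.99%, and the lowest and highest shares were those of female 6 and female 3, with the fewest reads.

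**Figure D5:**
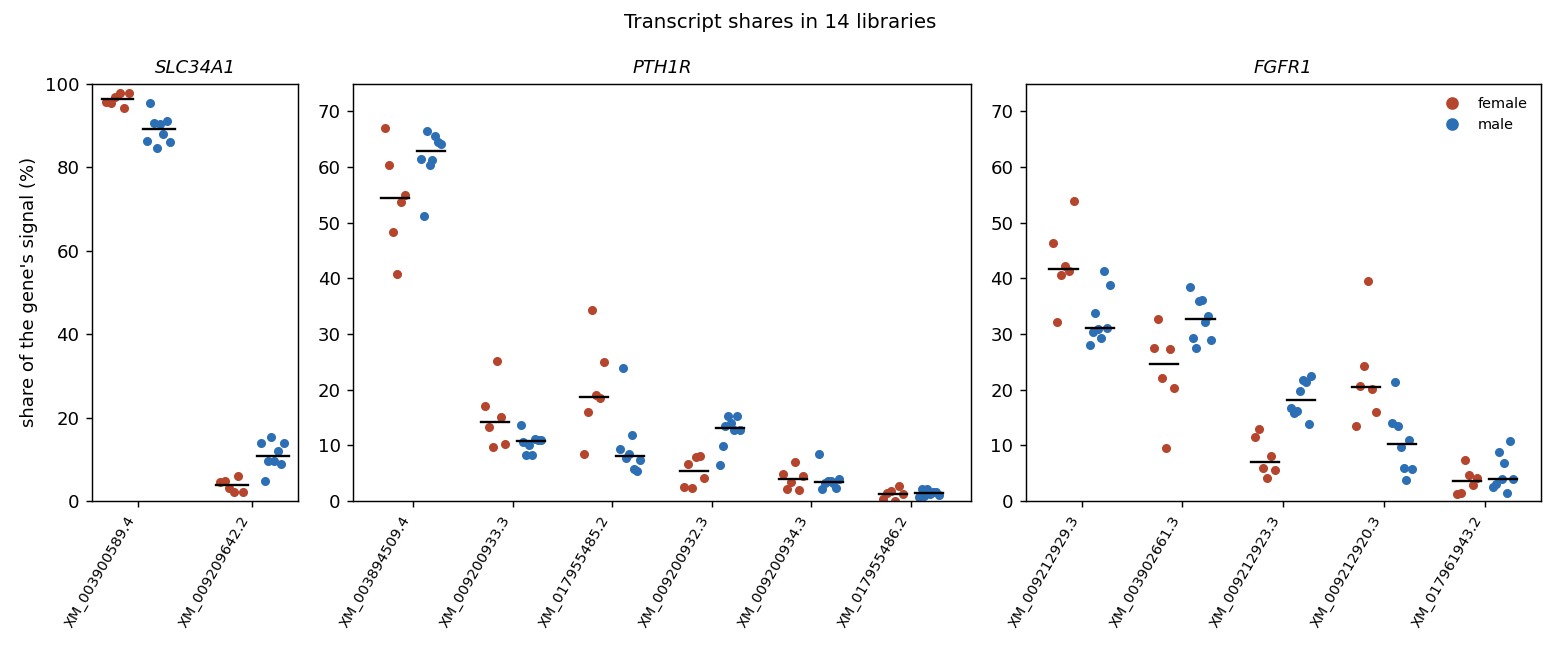
Share of a gene's signal held by each annotated transcript of SLC34A1, PTH1R and FGFR1, in percent, 1 point per library with bars at the medians. XM_009212923.3 of FGFR1 is the 1 transcript drawn whose female and male points do not overlap (4.11% to 12.9% and 13.8% to 22.5%).

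The wider pathway was read from 6 lists with 75 genes, of which 45 were tested. In females 20 of the 45 were lower (44.4%, beside 36.1% of all genes) and 0 higher, and the median log2 difference was -0.49 beside -0.35. After median scaling 8 were lower and 4 higher (17.8% and 8.89%, beside 14.9% and 14.4% of all genes). By list, scaling moved the lower calls from 5 to 3 of 7 for other transporters, from 3 to 1 of 11 for scaffolds, from 3 to 1 of 9 for FGF23 and klotho signalling, from 3 to 1 of 7 for parathyroid hormone signalling, from 2 to 1 of 3 for vitamin D and from 4 to 1 of 8 for FGF23 control and mineral genes. Of the 4 higher calls after scaling, 2 were in parathyroid hormone signalling, whose median log2 difference was 0.06 as deposited and 0.51 after scaling. The lists held genes of many segments, and the marker values given above apply to them as well.

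On the deposited scale, 5 of 7 other phosphate transporters were lower. SLC17A1, an anion transporter gene first described for phosphate, had a log2 difference of -2.27 and XPR1, the phosphate exporter gene, of -0.90 (limma adjusted p = 0.000839 and 0.00111). Among scaffolds and anchors 3 of 11 were lower, with PDZK1, whose product binds NaPi-IIa, at -1.503 and AKAP10, a kinase anchor gene, at -0.69 (limma adjusted p = 0.00128 and 0.00138). Of parathyroid hormone signalling genes 3 of 7 were lower, with PRKACB, a catalytic subunit gene of protein kinase A, at -0.99 (limma adjusted p = 0.00170), while the median of that list was above 0. These 5 genes had the smallest p-values of the lists, and after median scaling AKAP10, at -0.28, was the 1 of them not called (limma adjusted p = 0.0600).

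In FGF23 and klotho signalling 3 of 9 were lower, FGFR4, FRS2 and ADAM10, while FGFR3 had -0.19 (limma adjusted p = 0.429). FGFR4 encodes another FGF receptor, FRS2 an adaptor of these receptors and ADAM10 a protease that sheds klotho; these 3 and the genes named next were picked after their values were seen. Of the vitamin D genes 2 of 3 were lower, LRP2 and CUBN, which encode the uptake receptors megalin and cubilin, and VDR had -0.88 (limma adjusted p = 0.148). Of FGF23 control and mineral genes 4 of 8 were lower, FAM20C, ALPL, CALB1 and ATP2B1. FGF23 itself, CYP24A1 and CYP27B1 were not among the genes held for both sexes and were not analysed here. Of the 9 genes named in this paragraph as lower, ADAM10, LRP2 and ALPL were still called after median scaling (limma adjusted p = 0.0244, 0.0212 and 0.0200).

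Among the 8 males, the 5 of series A and the 3 of series B were compared as a check of the name series. By limma 0 of 8932 genes, 0.00%, passed (645 had an unadjusted p under 0.05), which includes the 6 phosphate genes. Their log2 differences, series A minus series B, were -0.29 for SLC34A1, -0.44 for SLC34A3, -0.40 for SLC9A3R1, -0.29 for PTH1R, -0.77 for KL and 0.12 for FGFR1. For KL the 95% interval was -1.40 to -0.13 (limma adjusted p = 0.670). Except for FGFR1 the series A males were the lower ones in each case. Against series A alone the females were still lower for SLC34A3, KL, SLC9A3R1 and PTH1R, while SLC34A1 at -1.44 and FGFR1 at 0.35 were not called (limma adjusted p = 0.124 and 0.152). Against series B alone SLC34A1 at -1.73 was not called (limma adjusted p = 0.116), and the other 5 genes were, FGFR1 at 0.48 (limma adjusted p = 0.0174).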

How the data were processed

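Stranded mRNA libraries of kidney cortex were sequenced. For each sex the authors deposited a table of signal, with 1 row per transcript and 1 column per library, per the file headers. Partek is named in the submitters' processing notes. The aligner, the quantifier, the scaling and the build were not given in the sources used here. The lowest deposited value was 1, taken as an offset and subtracted. The tables' module colours were not used. The male table was held in part, with 17119 complete rows and 1 incomplete row; its remainder was not analysed here. Each of those 17119 transcripts was found in the females, who had 26644 (64.3%). Over both tables the mean of the 17 libraries was never under 2, with 678 transcripts from 2 to 2.1, while the lowest mean was 1.01 in females and 1.00 in males. Both tables were therefore treated as 1 scaled set. A difference in scale between the tables was not tested, and levels are set across them on that footing. For the phosphate genes, their transcripts and their correlations, a median-scaled value is given where it changes a call.

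Tables were joined by transcript identifier, 7 transcripts that name no gene were left out, and signal was summed per gene. Genes that reached a signal of 1 in 6 or more libraries were tested with limma 3.58.1 in R 4.3.3 (mean-variance trend, log2(signal + 1), Benjamini-Hochberg), which was tested on simulated data. Log2 differences on this scale understate the change of low genes. All 6 phosphate genes held for both sexes passed the filter. Single values were compared by exact permutation tests with Python 3.11.15, numpy 2.4.6 and scipy 1.17.1. P-values measure the spread between animals, with 1 library each.

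Relative depth was taken from the step between low values, 0.0531 to 0.320 signal per read in the 14 libraries, by a rule settled after the values were seen. Between 48.5% and 72.3% of low values were whole multiples of it within 0.1 of a step. This is too few to recover whole reads, and a count test was therefore not used. Numbers of reads are therefore estimates, and they cover counting error only.

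The genes, the gene lists, the 14 libraries and the tests were chosen with earlier results of these data known. Named genes were the 8 phosphate genes, the at most 5 pathway genes per direction with the smallest p among those called, and the 3 genes most correlated with each phosphate gene; others are marked as picked after their values were seen. Alternatives were all 17 libraries, median and upper quartile scaling, a pseudocount of 0.1, a filter at 10, no filter and no trend. Others were age or proximal tubule level as a term, each male series alone and leaving out each library. For the ratio, 1 was also added to both signals. Chosen after seeing the data were SLC34A3 at the floor in female 3, females over 4 transcripts, the marker term without female 3, leaving out female 3 and female 6 together, and the transcript shares.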

Additional observations from a re-analysis of the deposited data

Results flagged for a closer look

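Female 3 stood apart from the other 5 females in SLC34A1. Its log2(signal + 1) was 5.024, the next lowest female had 8.07, and this gap was 0.674 of the range of the 6 females, above the limit of 0.625 for 6 values. It was 1 of 16 sets of values examined this way, and chance puts about 5% of sets past the limit. The proximal tubule level of the same library was 2.61 and its summed marker signal 379, the lowest of the 14 libraries, and the part of this in the SLC34A1 value was not tested. Without female 3, SLC34A1 was still called lower in females, at -0.93 (limma adjusted p = 0.00895).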

How the results depend on the processing

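Leaving out each of the 14 libraries in turn kept SLC34A1, SLC34A3, PTH1R, KL and SLC9A3R1 called, with log2 differences of -1.84 to -0.93, -3.52 to -2.80, -1.11 to -0.84, -2.59 to -2.05 and -1.46 to -1.18, and 5 to 6 of the 6 genes; 3095 to 4023 genes and 3424 to 4735 transcripts were called, and the log2 ratio difference was 2.17 to 2.88. Other settings moved the counts. Genes called were 1277 with 17 libraries, 378 with 17 and median scaling, 2226 with a filter at 10 (4320 genes tested), 1 with age, 2088 with the marker term, 1 with that term without female 3, and 1914 against series A. Phosphate genes called were 2, 1, 0, 2 and 0 with 17 libraries, 17 and median scaling, age, the marker term and that term without female 3. Transcripts called fell to 1347 and shares to 3 with 17 libraries, and the log2 ratio difference to 1.70. Between the male series 0 to 3 genes were called, 3 without male 4 and 1 without male 8.

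Signs turned for SLC34A1 with the marker term (0.63, and 0.37 without female 3) and for PTH1R with age (0.0346). For transcripts, XM_017955485.2 was at -0.61 with 17 libraries and -0.15 to 0.42 leaving out libraries, XM_017961943.2 at 0.24 with median scaling and -0.289 to 0.0896 leaving out libraries, and XM_003902661.3 at 0.25 and -0.251 to 0.0689 leaving out libraries. Pearson correlations of FGFR1 were positive after centring within sex and, except with SLC34A3, with 17 libraries: SLC34A1 0.165 and 0.256, PTH1R 0.642 and 0.198, KL 0.115 and 0.0738, SLC9A3R1 0.473 and 0.156, the marker level 0.152 and 0.111, and SLC34A3 0.357 after centring. With 17 libraries all 6 of these Spearman rho were negative, from -0.265 to -0.0172. The cause of these changes was not tested. Over the 15 settings other than leaving out 1 library, SLC34A3 was called in 13, KL in 11 and SLC9A3R1 in 10. PTH1R and FGFR1 were called in 8 and SLC34A1 in 7, once with the sign turned. Of these settings, females over 4 transcripts changed SLC34A3 only. For the other genes it repeated the main fit, so their call in it was fixed beforehand.

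No paired analysis was possible because the replicate numbers follow accession order and pair no animals. Few reads limit SLC34A3 in female 3 and female 6, an estimated 1.3 and 2.7. Relative depth, set to 1 in male 2, was low in female 6 at 0.166 but not in female 3 at 0.945. The cause of the few SLC34A3 reads in female 3 was not tested. Sex, age and name series cannot be told apart.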
